A study of Mus musculus with 13 samples.

Results

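The 10 genes described here, Trhde, Fmnl1, Lzts1, Tbc1d2b, Adgrd1, Zfp521, Serpind1, Tmem91, Arid5b and Baiap3, are 10 of the 19938 genes that could be read on the arrays. They were chosen by their measured genotype difference: the level differed between Kmt2d heterozygous and wild-type hippocampus, with a low p-value and with the same sign in 2 separate experiments. The genotype values below therefore describe how the genes were chosen and carry no test. Each gene was read by exactly 1 probe set. In the order of unadjusted p among genes with equal signs, 8 of the 10 took places 7 to 9 and 12 to 16, Baiap3 took place 28 and Arid5b place 38. The rule names no numerical limit. The neighbours of Arid5b in that order were Zyg11a, at a log2 genotype difference of -0.26 ± 0.06 (standard error, SE, from limma), and Zic5, at -0.50 ± 0.13.

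The 13 hippocampus samples, each taken here as 1 mouse, were each on an array of their own. The mice were labelled C57BL/6J, aged 1 to 2 months and kept on standard chow. In experiment 1, without injections, 4 mice were wild type (Kmt2d+/+) and 3 were Kmt2d+/BGeo. In experiment 2, 3 mice were wild type and 3 were Kmt2d+/BGeo, and all 6 received 3 injections of saline vehicle a day. RNA was extracted with a Qiagen RNeasy kit in experiment 1 and with TRIzol and a spin column in experiment 2. The labels give the sex as female for all but wild-type replicate 3 of experiment 1, for which it is unknown. Tissue RNA was read in bulk, so a value cannot be placed in a cell type.

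KMT2D is a histone methyltransferase that marks enhancers and promoters with methylated lysine 4 of histone H3, and loss of 1 copy in humans causes Kabuki syndrome, a developmental disorder with intellectual disability. The 10 genes belong to no single pathway. Trhde encodes the membrane enzyme that cleaves thyrotropin-releasing hormone outside the cell. Fmnl1 encodes a formin, a protein that builds and bundles actin filaments. Lzts1 encodes a leucine-zipper protein of the postsynaptic density, Baiap3 a Munc13-related protein of dense-core vesicle traffic, and Tmem91 a small membrane protein related to the synapse protein SynDIG1. Tbc1d2b encodes a GTPase-activating protein for Rab proteins, Adgrd1 an adhesion G protein-coupled receptor, and Serpind1 heparin cofactor II, a plasma inhibitor of thrombin. Zfp521 and Arid5b encode DNA-binding regulators, the first a zinc finger protein of progenitor cells and the second an AT-rich interaction domain protein that works with the demethylase PHF2.

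The stretch upstream of the transcription start was read for the members, because KMT2D acts on regulatory DNA and such stretches differ most visibly in their CpG content. RefSeq promoters (GRCm38.p6) were matched for 7 of the 10 genes, and 4 of them, whose start lay within 5 bases of the outermost annotated start of the gene, are shown over 240 bases from 250 to 11 bases before the start. They are Trhde, chr10:114802313-114802552 on the minus strand, Tbc1d2b, chr9:90270780-90271019 on the minus strand, Serpind1, chr16:17331121-17331360 on the plus strand, and Baiap3, chr17:25256375-25256614 on the minus strand. Capitals mark each CpG.
Trhde: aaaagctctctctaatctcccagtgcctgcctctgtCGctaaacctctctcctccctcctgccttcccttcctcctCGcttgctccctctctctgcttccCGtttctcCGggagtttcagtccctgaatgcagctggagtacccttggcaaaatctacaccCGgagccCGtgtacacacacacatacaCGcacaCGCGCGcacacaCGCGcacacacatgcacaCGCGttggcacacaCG
Tbc1d2b: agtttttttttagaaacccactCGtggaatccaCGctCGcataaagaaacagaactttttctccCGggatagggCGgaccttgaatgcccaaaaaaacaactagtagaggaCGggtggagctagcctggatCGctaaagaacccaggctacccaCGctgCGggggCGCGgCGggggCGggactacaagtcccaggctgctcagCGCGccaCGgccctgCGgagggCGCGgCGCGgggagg
Serpind1: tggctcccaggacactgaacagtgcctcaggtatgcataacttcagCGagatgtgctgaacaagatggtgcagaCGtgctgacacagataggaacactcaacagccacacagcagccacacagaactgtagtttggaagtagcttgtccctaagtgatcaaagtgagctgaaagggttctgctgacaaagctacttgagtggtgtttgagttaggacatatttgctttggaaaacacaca
Baiap3: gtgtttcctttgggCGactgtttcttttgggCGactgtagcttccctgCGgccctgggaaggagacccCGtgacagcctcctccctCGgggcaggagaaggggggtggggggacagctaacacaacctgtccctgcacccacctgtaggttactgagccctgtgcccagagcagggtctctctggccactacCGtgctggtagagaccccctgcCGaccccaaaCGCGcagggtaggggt

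The promoters were unlike each other. Tbc1d2b held 21 CpGs in its window, a count reached by 14.8% of the 32851 promoters in the table, Trhde 15 (25.7%), Baiap3 9 (38.9%) and Serpind1 2 (80.2%). The 3 matched promoters not shown held 32 CpGs for Fmnl1 (3.86%), 6 for Tmem91 (48.9%) and 4 for Arid5b (60.9%). Their starts lay 134, 4457 and 629 bases from the outermost annotated start of the gene, so their windows may belong to another start. The median over the table was 5. On either strand, TATAAA was found in the window of 1 of the 7 genes, Arid5b, against 12.1% of all promoters. GGGCGG was found in 3 of the 7, Fmnl1, Tbc1d2b and Tmem91, against 31.3%, and CCAAT in 0 of the 7 against 33% of all promoters. These are matches of letters in the window.

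Array medians over 35556 probe sets were 6.74 to 6.90 log2 units in experiment 1 and 7.04 to 7.08 in experiment 2, and the correlation of arrays over genes ran from 0.991 to 0.998 for pairs in experiment 1, from 0.985 to 0.994 for pairs in experiment 2, and from 0.936 to 0.958 for pairs across. Markers of the hippocampus were well expressed, with mean log2 levels of 9.41 for Prox1 of dentate granule cells, 10.44 for Wfs1 of CA1 and 9.71 for Grik4 of CA3. Wild-type replicate 2 of experiment 1 stood apart, with a mean of 10.47 over 11 striatal markers against 7.85 to 8.12 on the others. Wild-type replicate 3 of experiment 1, of unknown sex, carried a male pattern, with Xist at 4.81 against 10.70 to 11.48 on the other arrays. Heterozygous replicate 3 of experiment 2 had the lowest median correlation with the arrays of its experiment, 0.987. Kmt2d, the targeted gene, was lower in heterozygous mice by 1 of its 2 probe sets, at 7.33 ± 0.15 (standard deviation, SD, n = 3) against 7.88 ± 0.01 (SD, n = 4) in experiment 1 and 8.02 ± 0.15 against 8.53 ± 0.22 (SD, n = 3 each) in experiment 2. The other probe set was 9.91 ± 0.06 against 9.82 ± 0.01 and 9.69 ± 0.17 against 9.63 ± 0.18, so the targeted gene only partly checks the labels. Both probe sets had only 2 distinct values over the 4 wild-type arrays of experiment 1. The SD of 0.01 there rests on these tied values and does not measure the spread between mice.

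Trhde and Fmnl1 were the 2 members with higher values in heterozygous mice, and for both the genotypes were apart in each experiment. In experiment 1 Trhde read 9.68, 9.54, 9.54 and 9.60 log2 units in wild-type mice and 9.71, 9.81 and 9.96 in heterozygous mice. In experiment 2 it read 8.65, 8.58 and 8.62 in wild-type mice and 8.87, 8.98 and 9.04 in heterozygous mice. The groups came within 0.03 of touching in experiment 1 and were 0.22 apart in experiment 2. The difference, heterozygous minus wild type, was 0.24 ± 0.08 (SE) in experiment 1, 0.35 ± 0.09 in experiment 2 and 0.29 ± 0.06 over both, a 1.22-fold level.

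Fmnl1, the formin, was the steadiest of the 10 between mice of a group. It read 9.40, 9.31, 9.42 and 9.35 in wild-type mice of experiment 1 against 9.68, 9.59 and 9.65 in heterozygous mice. Its values in experiment 2 were 9.20, 9.17 and 9.31 against 9.48, 9.44 and 9.40. The groups were 0.17 apart in experiment 1 and 0.09 in experiment 2. Its difference was 0.27 ± 0.07 (SE) in experiment 1 and 0.21 ± 0.08 in experiment 2, 1.18-fold over both. The SD within groups, pooled over the 4 groups, was 0.053 for Fmnl1, which only 1.21% of genes matched or undercut, against a median of 0.14 over all genes. A small SD lowers the p by which the genes were chosen, so this value is partly a result of the choice.

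**Figure D1:**
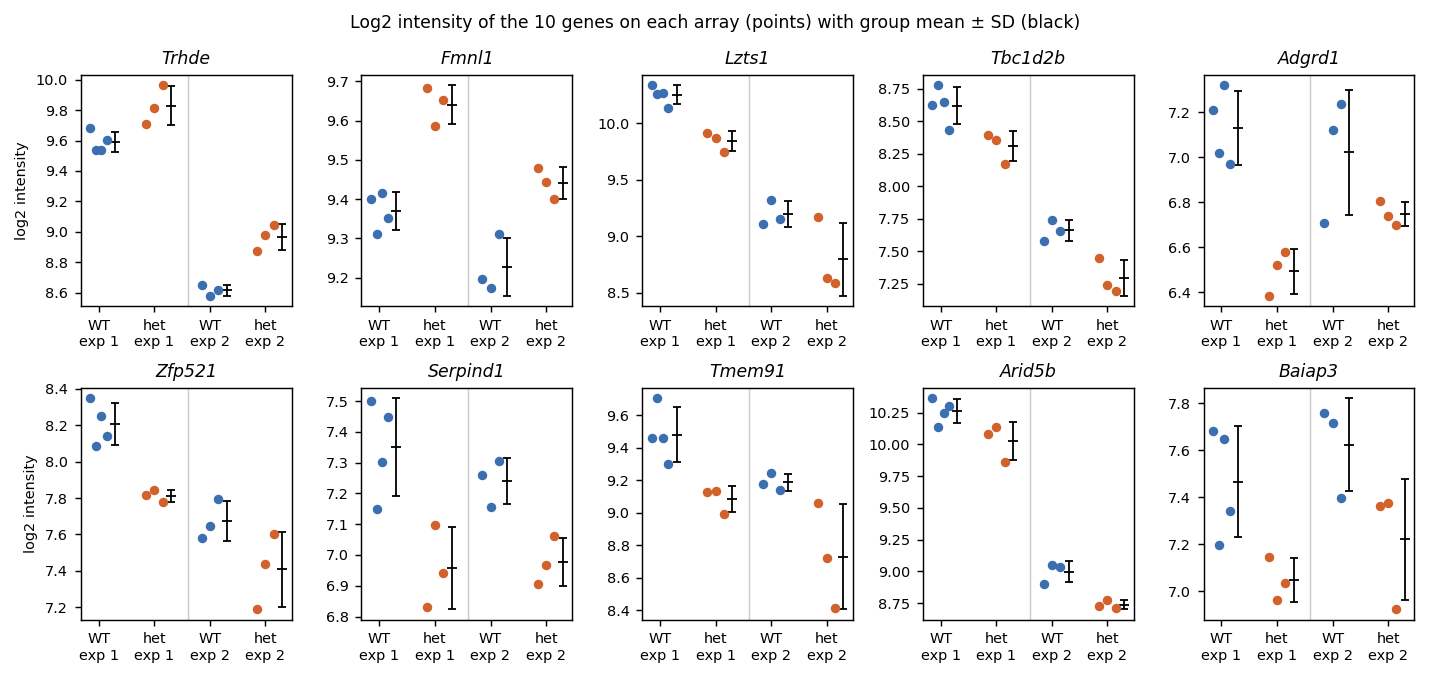
Log2 intensity (vertical axis, own scale for each gene) of the 10 genes in wild-type (WT, blue) and heterozygous (het, orange) mice of experiments 1 and 2; points are single mice and black bars the group mean ± SD. Trhde and Fmnl1 lie higher in heterozygous mice and the other 8 genes lower, and Trhde, Lzts1, Tbc1d2b and Arid5b have all mice of experiment 2 below all mice of experiment 1.

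The 3 members tied to synapses and vesicles, Lzts1, Tmem91 and Baiap3, had lower values in heterozygous mice. The postsynaptic gene Lzts1 read 10.34, 10.26, 10.27 and 10.14 in wild-type and 9.91, 9.87 and 9.74 in heterozygous mice of experiment 1. In experiment 2 the values were 9.11, 9.32 and 9.16 against 9.17, 8.63 and 8.59. Heterozygous replicate 1 of experiment 2 lay inside the wild-type range, so the genotypes overlapped there, while the other 2 heterozygous mice lay below every wild-type mouse. The difference was -0.41 ± 0.12 (SE) in experiment 1 and -0.40 ± 0.13 in experiment 2. Without heterozygous replicate 1 of experiment 2 it was -0.59 in that experiment.

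Tmem91 went the same way, with 9.46, 9.70, 9.46 and 9.30 in wild-type and 9.13, 9.13 and 8.99 in heterozygous mice of experiment 1. Experiment 2 gave 9.18, 9.24 and 9.14 against 9.06, 8.72 and 8.41. The genotypes were apart in both experiments, by 0.17 and 0.08, although the heterozygous mice of experiment 2 had an SD of 0.32. The difference was -0.40 ± 0.13 (SE) and -0.46 ± 0.14, or 74.4% of the wild-type level over both. Without heterozygous replicate 3 of experiment 2 it was -0.30 in that experiment. The highest wild-type value of 9.70 came from the array with high striatal markers, and without that array the difference in experiment 1 was -0.32.

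Baiap3, the Munc13 relative, had the widest spread within groups of the 10, with a pooled SD of 0.21. Wild-type mice of experiment 1 read 7.68, 7.20, 7.65 and 7.34 and heterozygous mice 7.15, 6.96 and 7.04. In experiment 2 the values were 7.76, 7.72 and 7.40 against 7.36, 7.38 and 6.92. The gaps between the genotypes, 0.05 and 0.02, were smaller than the SD within each of the 4 groups, 0.09 to 0.26. The difference was -0.42 ± 0.14 (SE) and -0.40 ± 0.15, or 75.2% of the wild-type level over both, and in experiment 2 -0.25 without heterozygous replicate 3.

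The membrane receptor Adgrd1 had a difference over both experiments of -0.47 ± 0.10 (SE), further from 0 than that of the other 9 genes. Wild-type mice of experiment 1 read 7.21, 7.02, 7.32 and 6.97 and heterozygous mice 6.38, 6.52 and 6.58, a gap of 0.39. In experiment 2 wild-type mice read 6.71, 7.12 and 7.24 and heterozygous mice 6.80, 6.74 and 6.70. Wild-type replicate 1 of experiment 2 lay among the heterozygous mice, and the other wild-type mice lay above them. The difference was -0.64 ± 0.12 in experiment 1, 64.3% of the wild-type level, and -0.27 ± 0.13 in experiment 2, 82.7% of it. In experiment 2 it was -0.43 without wild-type replicate 1 and -0.17 without wild-type replicate 3. Whether these 2 values differ was not tested, since both chose the gene.

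Serpind1, the thrombin inhibitor, and Tbc1d2b, the Rab regulator, were apart by genotype in both experiments. Serpind1 read 7.50, 7.15, 7.30 and 7.45 in wild-type and 6.83, 7.10 and 6.94 in heterozygous mice of experiment 1, and 7.26, 7.16 and 7.30 against 6.91, 6.97 and 7.06 in experiment 2. The difference was -0.39 ± 0.10 (SE) and -0.26 ± 0.10, or 79.5% of the wild-type level over both. The lowest wild-type value, 7.15, came from the array with high striatal markers. Without the 3 arrays that stood apart the difference in experiment 1 was -0.52.

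Tbc1d2b read 8.62, 8.78, 8.65 and 8.43 in wild-type mice of experiment 1 and 8.40, 8.36 and 8.18 in heterozygous mice. In experiment 2 the values were 7.58, 7.74 and 7.66 against 7.45, 7.24 and 7.19. The gap was 0.04 in experiment 1, where wild-type replicate 4 was close to the heterozygous mice, and 0.13 in experiment 2. Its difference was -0.31 ± 0.10 (SE) and -0.37 ± 0.10, or 79.2% of the wild-type level over both.

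The 2 DNA-binding regulators were also lower in heterozygous mice. Zfp521 read 8.35, 8.09, 8.25 and 8.14 in wild-type and 7.82, 7.84 and 7.78 in heterozygous mice of experiment 1, and 7.58, 7.65 and 7.80 against 7.19, 7.44 and 7.60 in experiment 2. The genotypes were 0.24 apart in experiment 1 and overlapped in experiment 2, where heterozygous replicate 3 passed wild-type replicate 1. The difference was -0.39 ± 0.10 (SE) and -0.27 ± 0.11, and in experiment 2 -0.16 without heterozygous replicate 1.

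Arid5b read 10.36, 10.14, 10.25 and 10.31 in wild-type and 10.08, 10.14 and 9.86 in heterozygous mice of experiment 1. The highest heterozygous and the lowest wild-type value there differed by 0.0002, so the genotypes were as good as touching. In experiment 2 the values were 8.90, 9.05 and 9.04 against 8.72, 8.78 and 8.71, a gap of 0.12. The difference was -0.24 ± 0.09 (SE) and -0.26 ± 0.09, or 84.3% of the wild-type level over both. Without heterozygous replicate 3 of experiment 1 it was -0.15 in that experiment.

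Wild-type and heterozygous values did not cross for 10 of the 10 genes in experiment 1, where 7.22% of all genes were apart, and for 7 of the 10 in experiment 2, where 9.48% were. The exceptions in experiment 2 were Lzts1, Adgrd1 and Zfp521. All 10 had equal signs in both experiments, as 48.2% of all genes did. The choice of the genes fixed the count of equal signs and favoured the counts of genotypes apart. Over all 19938 genes the genotype difference passed an adjusted p of 0.05 (limma, Benjamini-Hochberg) for 0%, with 5.25% at an unadjusted p under 0.05. In experiment 1 it was 0.0201%, or 4 genes, none of them a member (3.5% at an unadjusted p under 0.05), and in experiment 2 it was 0% (10.2% unadjusted). With array weights 21 genes passed over both experiments. The median genotype difference over both was -0.34 for the 10 and 0.002 for all genes.

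**Figure D2:**
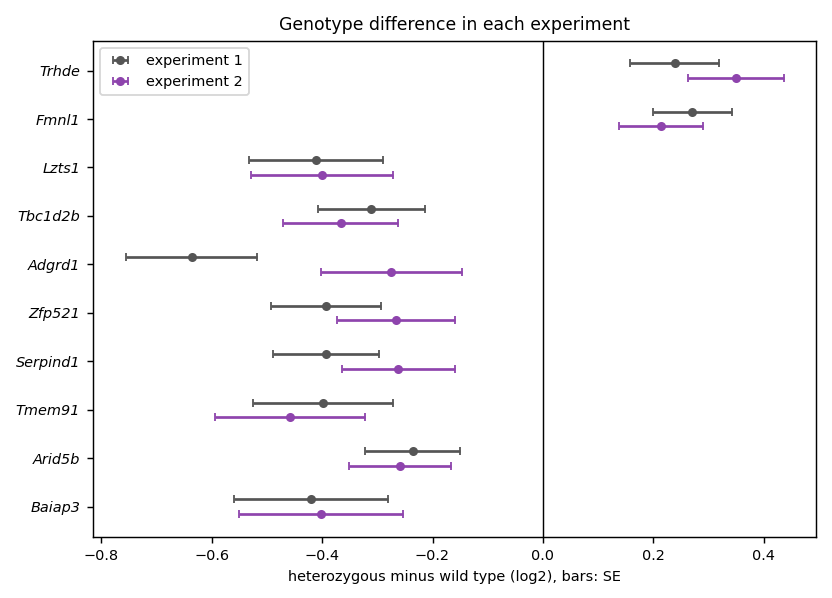
Genotype difference (horizontal axis, heterozygous minus wild type in log2 units, bars SE from the model of 4 groups) of each gene in experiment 1 (grey) and experiment 2 (purple). Values run from -0.64 for Adgrd1 in experiment 1 to 0.35 for Trhde in experiment 2, and each gene lies on the same side of 0 in both, which is how it was chosen.

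Marker genes of other cell types and of tissue at the border of the hippocampus differed between the genotypes on the same arrays, several of them with opposite signs in the 2 experiments. Septal markers were below 0 for 12 of 12 genes over both experiments, with a median difference of -0.51, and 1 of the 12 passed the threshold, in experiment 1. Their mean was 7.81 to 8.07 in wild-type and 7.24 to 7.33 in heterozygous mice of experiment 1, and 7.18 to 7.38 against 6.76 to 7.02 in experiment 2. Ano2, Zic1, Ecel1, Zic4, Glp1r, Slc10a4, Zic2 and Zic5 are in that list and hold places between 1 and 39 in the order of p for genotype. The list was drawn up with those results known, so its counts and means are partly fixed by that choice. Striatal markers were below 0 for 11 of 11 genes in experiment 1, with a median of -0.69, but this rested on wild-type replicate 2: without that array 6 of 11 were below 0, with a median of -0.04. In experiment 2 6 of 11 were below 0, with a median of -0.01. Markers of meningeal fibroblasts were below 0 for 14 of 14 genes over both experiments (median -0.21), and their list means overlapped between the genotypes in both. This list, too, was drawn up with results known and holds Col6a3 and Foxd1, at places 5 and 35 in the order of p for genotype. Markers of dentate granule cells were above 0 for 10 of 10 genes in experiment 1 (median 0.42) and 6 of 10 in experiment 2 (median 0.01); without wild-type replicate 2 the median in experiment 1 was 0.24. Choroid plexus markers were below 0 for 11 of 11 genes in experiment 1 (median -0.86) and above 0 for 11 of 11 in experiment 2 (median 0.38). Ependymal markers were below 0 for 10 of 10 genes in experiment 1 (median -0.34) and above 0 for 7 of 10 in experiment 2 (median 0.14). Oligodendrocyte markers were below 0 for 9 of 9 genes in experiment 1 (median -0.25) and above 0 for 8 of 9 in experiment 2 (median 0.21). Genes of 1 list were read on the same few arrays, so these counts are not separate results. In experiment 2 the list means of dentate, choroid plexus, ependymal and oligodendrocyte markers overlapped between the genotypes. For choroid plexus they were 6.72 to 8.33 in wild-type and 7.48 to 8.54 in heterozygous mice. In experiment 1 the choroid plexus means overlapped too, and those of the other lists just named were apart. The part of these markers in the members' differences was not tested. Fewer cells of a type and less RNA per cell cannot be told apart in whole tissue.

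Without the array of high striatal markers, the members' differences in experiment 1 were -0.41 for Lzts1, -0.26 for Tbc1d2b, -0.67 for Adgrd1, -0.43 for Zfp521, -0.46 for Serpind1, -0.28 for Arid5b and -0.51 for Baiap3, and 0.22 for Trhde and 0.25 for Fmnl1. Over both experiments, without all 3 arrays that stood apart, they ran from -0.42 for Adgrd1 to -0.27 for Tbc1d2b among the 8 lower genes, and were 0.25 for each of the 2 higher genes. No member changed sign, which the choice of the genes favours.

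The difference between the experiments was not itself used to choose the genes and was tested. The test is not free of the choice: the fit gives both differences the same SE, and a low genotype p favours a small SE. Fmnl1 passed below with a difference whose size was at percentile 22.6 of all genes. Of the 10, 7 were lower in experiment 2 and 0 were higher, with an adjusted p under 0.05 (limma with genotype and experiment as terms). Over all genes 77.2% passed, 35.4% as lower and 41.8% as higher, and 78.7% had an unadjusted p under 0.05, so 7 of 10 called is near the share of all genes. Arid5b fell by 1.28 ± 0.06 log2 units (SE; 2.42-fold; limma adjusted p = 1.73e-11). Its wild-type mean was 10.26 ± 0.10 (SD, n = 4) in experiment 1 and 9.00 ± 0.08 (SD, n = 3) in experiment 2. Lzts1 fell by 1.05 ± 0.09 (2.08-fold; limma adjusted p = 1.09e-08), Tbc1d2b by 0.99 ± 0.07 (1.98-fold; limma adjusted p = 1.85e-09) and Trhde by 0.92 ± 0.06 (1.90-fold; limma adjusted p = 5.92e-10). For these 4 genes all 6 mice of experiment 2 lay below all 7 of experiment 1, as mice were apart in one direction or the other for 52.8% of all genes.

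Zfp521 fell by 0.47 ± 0.07 (SE; limma adjusted p = 2.07e-05). Tmem91 fell by 0.32 ± 0.09 (limma adjusted p = 0.0041), but with quantile normalization of all arrays its value was -0.05 (limma adjusted p = 0.666; range over its alternatives 1.68e-05 to 0.666). Fmnl1 was lower by -0.17 ± 0.05 (limma adjusted p = 0.00713), and after that normalization it was higher, at 0.13 (limma adjusted p = 0.0276). Adgrd1, at 0.06 ± 0.10 (limma adjusted p = 0.571), Serpind1, at -0.05 ± 0.07 (0.535), and Baiap3, at 0.16 ± 0.10 (0.139), did not pass. Baiap3 passed as higher, at 0.22, without heterozygous replicate 3 of experiment 2 (limma adjusted p = 0.0383; range 0.0383 to 0.773). The median of all genes was 0.07 as deposited and -0.17 after each array was centred on its median, and Serpind1 then passed as lower at -0.29 (limma adjusted p = 0.00273; range 0.00273 to 0.812). For the experiment difference the called genes split into 8331 higher and 7054 lower as deposited, 3913 and 9929 after centring, and 5221 and 7499 after quantile normalization.

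Within wild-type mice 5 of the 10 passed as lower in experiment 2, against 69.3% of all genes called in either direction (37.3% higher, 32% lower; 71.9% unadjusted), and within heterozygous mice 7 of the 10, against 62.3% (31% higher, 31.3% lower; 66.1% unadjusted). The 5 were Trhde, Lzts1, Tbc1d2b, Zfp521 and Arid5b. Tmem91 (-0.29 ± 0.13 in wild-type mice, limma adjusted p = 0.0507) and Fmnl1 (-0.14 ± 0.07, limma adjusted p = 0.0893) passed within heterozygous mice, at -0.35 ± 0.14 (0.0338) and -0.20 ± 0.08 (0.034). The injections, the RNA extraction and the array medians differ together between the experiments and cannot be told apart. Whether the arrays of both experiments were normalized together is not stated.

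**Figure D3:**
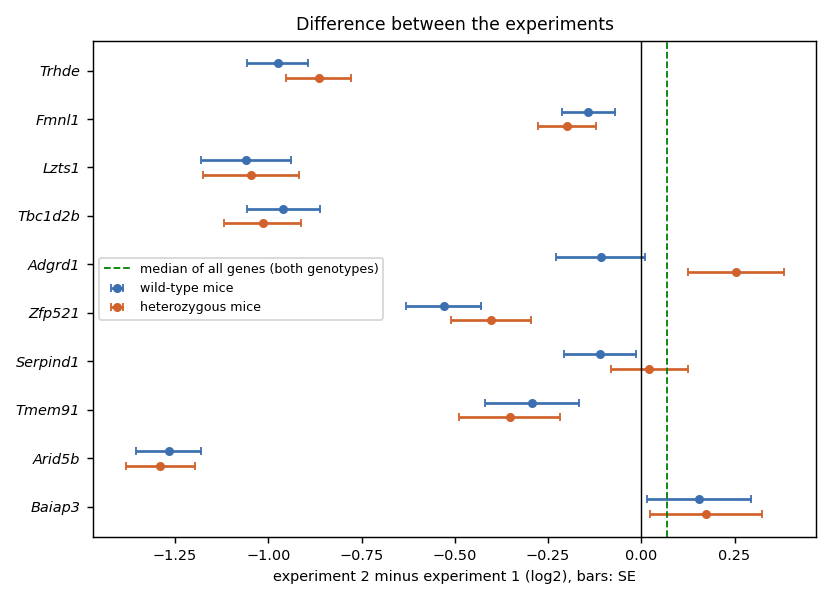
Difference between the experiments (horizontal axis, experiment 2 with saline injections minus experiment 1 without, log2 units, bars SE) in wild-type (blue) and heterozygous (orange) mice, with the median of all genes as a dashed line. Arid5b, Lzts1, Tbc1d2b and Trhde lie near -0.9 to -1.3 in both genotypes, while Adgrd1, Serpind1 and Baiap3 lie between -0.11 and 0.25.

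How the members varied between mice of 1 group was read from deviations from the 4 group means; the p-value that chose the genes used the size of these deviations, but not their likeness between genes. Correlations over the 13 arrays describe this and carry no p, because deviations within a group sum to 0 and the genes share the same arrays. Of the 45 pairs of members 30 were above 0, with a median r of 0.13. Pairs of other genes were not summarized, so whether this or the r values of single pairs are unusual cannot be said. Lzts1, Tbc1d2b and Tmem91 rose and dipped in the same mice, at r = 0.85 for Tbc1d2b with Tmem91, 0.80 for Lzts1 with Tmem91 and 0.77 for Lzts1 with Tbc1d2b. All of the 3 were high in heterozygous replicate 1 and low in heterozygous replicate 3 of experiment 2. Trhde varied the other way, with r = -0.73 with Tbc1d2b, -0.64 with Tmem91 and -0.58 with Lzts1. Zfp521 with Tmem91 was at -0.70, and Serpind1 was at 0.60 with Trhde and 0.56 with Zfp521.

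The septal list mean deviated in the same direction as part of the members. Its r was 0.79 with Tbc1d2b, 0.73 with Lzts1, 0.69 with Tmem91, 0.68 with Adgrd1 and 0.51 with Fmnl1. With Baiap3 it was 0.39 and with Arid5b 0.29, against -0.50 with Trhde, -0.34 with Serpind1 and -0.07 with Zfp521. The list of inhibitory neuron markers gave much the same order, with 0.65 for Lzts1, 0.63 for Adgrd1, 0.62 for Tbc1d2b, 0.54 for Fmnl1 and -0.55 for Trhde, and Adgrd1 was at 0.80 with the CA1 pyramidal list. The list of CA3 pyramidal markers was at 0.78 with Zfp521, 0.76 with Serpind1 and 0.53 with Trhde, and at -0.78 with Tmem91, -0.70 with Lzts1 and -0.67 with Tbc1d2b. These values were picked from the correlations of all members with all marker lists. Lists not named above reached a like size, such as astrocyte markers at 0.75 with Arid5b. Serpind1 was at -0.68 with both the microglia and the striatal list.

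**Figure D4:**
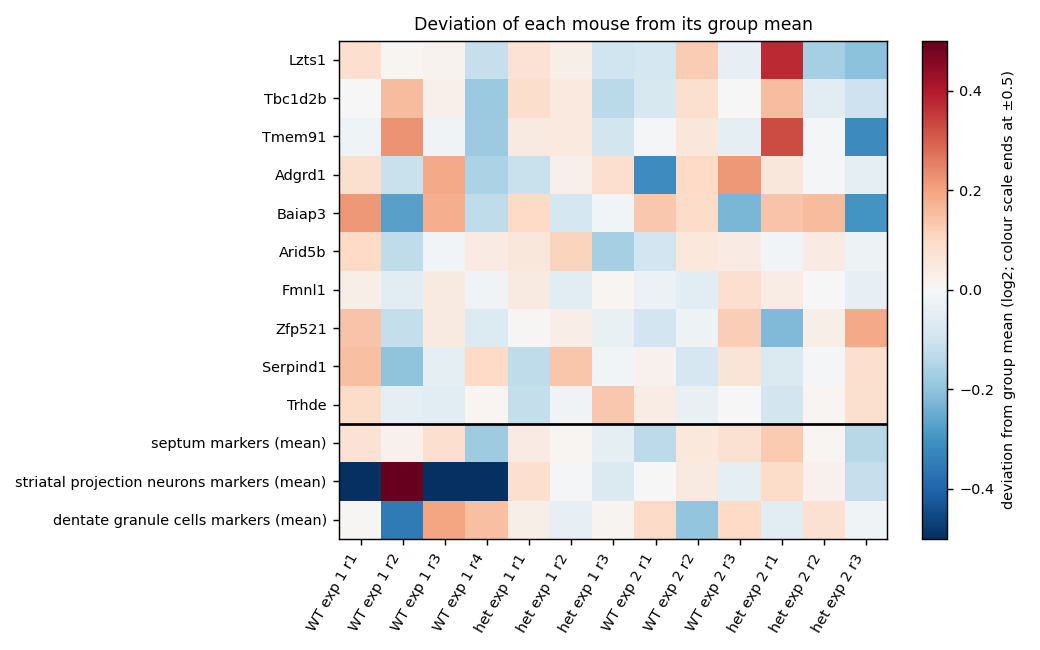
Deviation of each mouse (columns; r, replicate) from its group mean in log2 units (colour, ends at ±0.5) for the 10 genes and, under the line, the mean of 3 marker lists. Lzts1, Tbc1d2b and Tmem91 share a high value in heterozygous replicate 1 of experiment 2, and the striatal markers stand out in wild-type replicate 2 of experiment 1.

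The genes most like each member in these deviations, among 14863 genes with a mean of at least 6 log2 units and over the 13 arrays, were Hif3a (r = 0.95) and Bend7 (0.93) for Tbc1d2b, Klhl18 (0.94) and Rhobtb1 (0.94) for Lzts1, and Ckb (0.95) and Gigyf1 (0.93) for Tmem91. For the other lower genes they were Rec8 (0.94) and Ciz1 (0.93) for Adgrd1, Slu7 (0.96) and Wdr25 (0.94) for Zfp521, Ganab (0.91) and Gpr182 (0.87) for Serpind1, Rpl6 (0.95) and Nim1k (0.93) for Arid5b, and Pnp (0.95) and Rhov (0.94) for Baiap3. For the higher genes they were H2-M10.2 (0.88) and Gm4971 (0.80) for Trhde, and Plekhj1 (0.93) and Lemd2 (0.93) for Fmnl1. Picked as the highest of so many genes over 13 arrays, these r values are high by choice.

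Relatives of the members by family or pathway were read in 10 lists drawn up with earlier results known. Of 142 relatives in 10 lists, 0 passed the threshold over both experiments (limma adjusted p; 6, or 4.23%, had an unadjusted p under 0.05, against 5.25% of all genes), 66 were above 0 and 76 below. Around Trhde, the hormone gene Trh was at 0.10 ± 0.18 (SE), its receptor Trhr at -0.14 ± 0.31 and the aminopeptidase Npepps at 0.01 ± 0.08. Of the 12 other formins measured 6 were above 0, with Fmnl2, the closest relative of Fmnl1 measured, at 0.15 ± 0.12 from -0.11 in experiment 1 and 0.45 in experiment 2. Of 7 postsynaptic relatives of Lzts1 2 were above 0 and 5 below, Lzts2 at -0.05 ± 0.08 and Lzts3 at -0.005 ± 0.10.

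Among 28 other TBC domain genes 15 were above 0, and Tbc1d2, the paralog of Tbc1d2b, was at -0.21 ± 0.08 (SE; limma adjusted p = 0.848). Among 26 adhesion receptors 15 were below 0, with Adgrg1 at -0.10 ± 0.05, Adgrl3 at 0.06 ± 0.07 and Adgrb3 at 0.06 ± 0.06. The 5 relatives of Zfp521 all lay below 0 over both experiments (median -0.07), and 2 of the 5 lay above 0 in experiment 2; Zfp423 was at -0.05 ± 0.07 and Ebf1 at -0.06 ± 0.14. Of 17 serpins and thrombin genes 10 were below 0, with the thrombin gene F2 at 0.009 ± 0.06, its receptor F2r at -0.03 ± 0.09, the antithrombin gene Serpinc1 at -0.006 ± 0.07 and the neuronal serpin Serpini1 at 0.02 ± 0.10.

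The relatives of Tmem91 differed in sign, with Syndig1 at 0.12 ± 0.08 (SE), Syndig1l, a gene of striatal neurons, at -0.23 ± 0.20 and Prrt1 at 0.02 ± 0.10. For Arid5b, 7 of 14 AT-rich domain genes were below 0, Arid5a at -0.01 ± 0.05 and the partner Phf2 at -0.06 ± 0.08. For Baiap3, 6 of 14 genes of Munc13 proteins and dense-core vesicles were below 0, with Unc13a, which primes synaptic vesicles, at -0.001 ± 0.07 and Cadps2, which primes dense-core vesicles, at 0.16 ± 0.11.

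Between the experiments the relatives changed about as often as all genes, with 78.2% of the 142 past the threshold against 77.2%, 35 as higher and 76 as lower. After centring the split was 13 and 98, and after quantile normalization 29 and 77. Lzts2 rose by 0.54 ± 0.08 (SE; limma adjusted p = 9.57e-06) and Lzts3 by 0.92 ± 0.10 (limma adjusted p = 5.07e-07) where Lzts1 fell, both also after centring (0.30 and 0.67) and after quantile normalization (0.75 and 1.18). Tbc1d2 was at 0.40 ± 0.08 (limma adjusted p = 0.000298) as deposited, but at 0.15 (0.113) after centring and 0.14 (0.178) after quantile normalization. Arid5a was at 0.20 ± 0.05 (limma adjusted p = 0.00279) as deposited, at 0.19 after quantile normalization and at -0.05 after centring (limma adjusted p = 0.467). Npepps fell by 1.58 ± 0.08 (limma adjusted p = 2.18e-11) as Trhde did.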

How the data were processed

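Hippocampal RNA of 13 mice was read on Affymetrix Mouse Gene 1.0 ST arrays, 1 array a mouse. The values deposited by the authors are log2 intensities; the submitters' processing notes name RMA and oligo, without versions. Of 35556 probe sets the platform annotation lists 23410, of which 21789 carry 1 gene symbol and 1621 several. For genes with more than 1 probe set, the 1 with the highest mean was kept, which left 19938 genes. Genotype and experiment differences were fitted on all genes with limma 3.58.1 (statmod 1.5.0, R 4.3.3), once with both as additive terms and once on the 4 groups, with Benjamini-Hochberg adjustment and a threshold of 0.05. The labels do not say more about the replicates than separate samples, and each sample is taken here as 1 mouse. The p-values rest on the spread between these samples.

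The members and all lists were chosen with earlier results of these data known. Named genes are the members, the 2 genes most like each in within-group deviations (mean at least 6), nearest relatives and Kmt2d. Promoters of 3 members were not matched, and 3 matched ones are not printed. Replicate numbers were not used to pair the mice in the main fit. Correlations of same-numbered deviations ran from -0.228 to 0.221. Differently numbered mice were not compared, so these values do not settle whether the mice were paired. The fit of the experiment difference was tested on simulated data with independent noise for each gene. The genotype fits were not tested in this way.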

Additional observations from a re-analysis of the deposited data

How the results depend on the processing

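The members' genotype differences kept their sign in all 681 recomputations over 23 alternatives, and 2 moved by more than the SD between replicates: Lzts1 in experiment 2, at -0.59 without heterozygous replicate 1, and Serpind1 in experiment 1, at -0.52 without 3 arrays, an alternative chosen after seeing the data. The genes were chosen by this difference and its equal sign, so the kept signs are partly fixed by that choice. Many recomputations could not move a value. Each member has 1 probe set, so other choices of probe set or leaving out low genes gave the same difference. Leaving out an array of 1 experiment left the difference within the other experiment as it was. Of 227 experiment differences 4 took the other sign: Fmnl1, which passed both ways, at 0.13 under quantile normalization, and, past the threshold in neither, Adgrd1 at -0.18 after centring and -0.19 under quantile normalization and Baiap3 at -0.08 after centring. The cause was not tested. For the genotype difference over both experiments, the genes called numbered 21 with array weights and 0 to 2 with single arrays left out. For the genotype difference in experiment 1 they numbered 163 with array weights, 2 with quantile normalization, 0 with every probe set tested and 0 without the lowest 50% of genes, and 0 to 48 with single arrays left out, 48 without wild-type replicate 2. For the genotype difference in experiment 2 they numbered 2 with quantile normalization and 0 to 91 with single arrays left out, 91 without heterozygous replicate 1. Genes called for the experiment difference numbered 26086 with every probe set tested and 8020 without the lowest 50%, where fewer genes were tested; for the experiment difference in wild-type mice 22823 and 7399, and for the experiment difference in heterozygous mice 20593 and 7109. With single arrays left out these counts ran from 14931 to 15594, 12728 to 14225 and 10641 to 12708. With the replicate block 1 gene was called for genotype in experiment 1, 0 over both experiments and 0 in experiment 2, and 15702 for the experiment difference; 5 of 6 same-numbered pairs correlated below 0. The number of arrays limits the precision.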

Other observations

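Among the 142 relatives, 6 (4.23%, against 5.25% of all genes) had an unadjusted p under 0.05 for genotype and were picked after their values were seen. Ebf3, an early B cell factor gene related to the Zfp521 pathway, was at -0.42 ± 0.10 (SE; limma adjusted p = 0.516), with -0.59 in experiment 1 and -0.22 in experiment 2. Pcsk1, a prohormone convertase gene, was at -0.24 ± 0.11 (limma adjusted p = 0.934), and Ebf2 at -0.19 ± 0.09, with -0.44 in experiment 1 and 0.09 in experiment 2. Serpinb9 was at 0.17 ± 0.08. Kdm5c, an X-linked demethylase gene, was at 0.14 ± 0.07, with 0.20 in experiment 1 and 0.08 in experiment 2. The array with a male pattern was a wild-type array of experiment 1, and the part of sex in the value of Kdm5c was not tested.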
